A study of Mus musculus with 2 samples.

Results

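The clustered protocadherins are neighbouring genes for neuronal cadherin-like proteins. They were taken as every gene in the deposited gene tables whose symbol is Pcdha, Pcdhac, Pcdhb, Pcdhga, Pcdhgb or Pcdhgc followed by a number. This gave 58 genes out of 43346 Ensembl genes in the tables, of which 42462 could be given a name. The alpha cluster had 14 members, 12 named Pcdha and 2 named Pcdhac. The beta cluster had 22 members, all named Pcdhb, and the gamma cluster had 22 members, 12 named Pcdhga, 7 named Pcdhgb and 3 named Pcdhgc. Membership rests on gene names, and no measured value entered the rule, although it was chosen with earlier results of these data known.

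The measurements came from 2 total RNA-seq libraries of mouse forebrain at embryonic day 14.5, strain B6NCrl, with no treatment and no engineered allele named. Each library was labelled as made from a single forebrain, and the 2 forebrains were collected on different days. The sex field of both read male and female pooled, and both carried the same donor identifier, so how far the embryos were separate animals of separate litters is not settled by the labels. Each library started from 10 ng of RNA longer than 200 nt, extracted with the mirVana kit, with spike-in RNA added and a protocol named after Smart-seq. The libraries form 1 group, so no treatment or genotype was compared, and the smallest p that an exact test on 2 libraries can give is 0.5. The libraries summed to 35310017 expected counts in replicate 1 and 29250404 in replicate 2, and the 58 genes held 0.0624% and 0.0795% of them. Forebrain markers were present, with Neurod6 at 384 TPM (transcript abundance corrected for length and library size) and Emx1 at 54.6 TPM on average, while the hindbrain and spinal cord genes Hoxb8 and Hoxc6 had 0 counts in both libraries and Hoxa5 had 0 and 7.

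Clustered protocadherins give each neuron a surface identity. In the alpha and gamma clusters every gene has its own promoter and a large variable exon, which codes for the extracellular cadherin repeats and the membrane span, and this exon is spliced to constant exons shared by the whole cluster that code for a common intracellular tail. Beta genes consist in the main of a single exon and have no constant exons. A neuron chooses a few of the alternate promoters at random, through DNA methylation and looping by CTCF and cohesin, whereas the C-type genes (Pcdhac and Pcdhgc) are expressed more evenly from cell to cell. The proteins bind only to matching combinations on a facing membrane, which lets branches of the same neuron recognise and avoid each other, and the gamma cluster is needed for the survival of many interneurons. RNA from a whole forebrain gives the average over all its cells, so fewer cells using a promoter and less RNA per cell cannot be told apart here.

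All 58 genes lie on the plus strand of mouse chromosome 18 within 0.912 Mb. In GRCm38 coordinates the alpha cluster runs from 36930184 to 37187661, the beta cluster from 37264938 to 37524479 and the gamma cluster from 37661793 to 37841873. The constant exons found in the annotation were 59, 89 and 2712 nt long in the alpha cluster and 59, 89 and 1971 nt long in the gamma cluster. The last alpha constant exon spans 37184946 to 37187657 and the last gamma constant exon spans 37839903 to 37841873. These shared ends make up a large part of each alpha and gamma messenger RNA. The share of 100-nt windows of a gene's longest transcript that occurred in no other gene had a median of 44.2% in the alpha cluster and 55.9% in the gamma cluster, against 99.8% in the beta cluster. A read from a constant exon cannot name its gene by sequence, and the deposited values for alpha and gamma genes therefore include an estimated split of such reads.

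The gamma cluster gave the most RNA. Its members summed to 158.58 TPM in replicate 1 and 200.53 TPM in replicate 2 (180 ± 29.7, SD, n = 2). The alpha members summed to 40.95 and 56.56 TPM (48.8 ± 11.0), and the beta members to 39.69 and 54.44 TPM (47.1 ± 10.4). Gamma was thus the highest cluster in both libraries, with 65.3% ± 1.36 of the summed level of all 58 genes, against 17.6% ± 0.734 for alpha and 17.0% ± 0.625 for beta. The log2 ratio of the gamma to the alpha sum was 1.95 in replicate 1 and 1.83 in replicate 2 (1.89 ± 0.09), and that of gamma to beta was 2.00 and 1.88 (1.94 ± 0.08). Both differences were many times the spread between the libraries. Alpha and beta were nearly level, with a log2 ratio of beta to alpha of -0.05 in replicate 1 and -0.06 in replicate 2. The mean ratio was -0.00099 when only protein-coding transcripts were summed, and no order of alpha and beta is drawn from it.

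**Figure D1:**
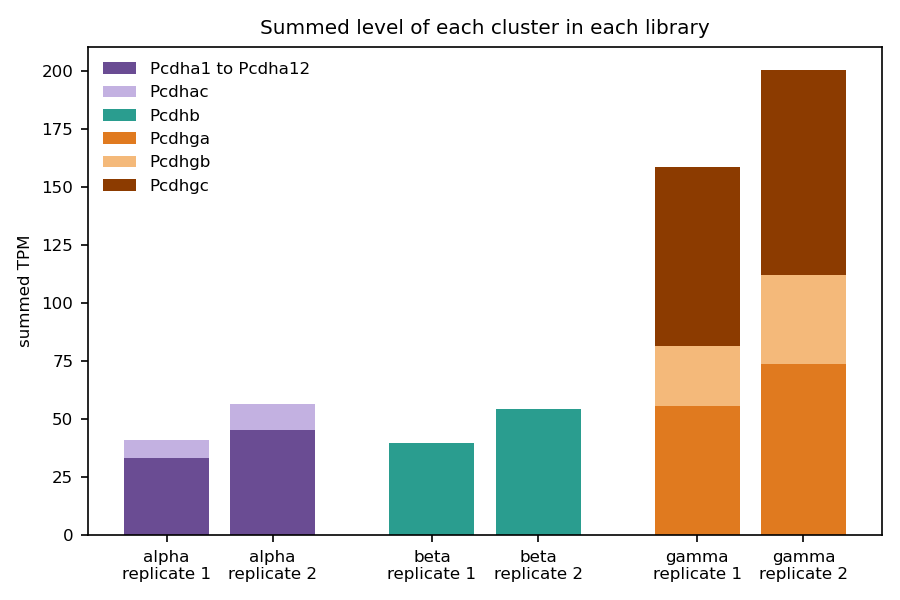
Summed TPM (vertical axis, from 0) of the alpha, beta and gamma clusters in each of the 2 libraries, with the colours giving the gene families within a cluster. The gamma bars stand at 158.58 and 200.53 TPM, above every alpha and beta bar, and the Pcdhgc genes take 48.6% and 44.0% of them.

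The C-type genes made up a large part of the gamma sum. The 3 Pcdhgc genes held 48.6% of the gamma sum in replicate 1 and 44.0% in replicate 2, the 12 Pcdhga genes 35.2% and 36.9%, and the 7 Pcdhgb genes 16.2% and 19.1%. Without the Pcdhgc genes, the 19 alternate gamma genes summed to 81.48 and 112.25 TPM. Against the 12 alternate alpha genes, at 33.37 and 45.37 TPM, the log2 ratio was then 1.30 ± 0.01, and per gene it was 0.63 ± 0.01. The median gene stood at 3.52 TPM in alpha, 1.75 TPM in beta and 3.96 TPM in gamma. By medians gamma was thus closer to alpha than by sums, with a log2 ratio of 0.19 ± 0.05, while beta lay further below alpha, at -0.98 ± 0.11.

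Most of the genes were detected. At least 1 TPM was reached in both libraries by 47 of 58 members, against 59.6% of nuclear protein-coding genes and 33.3% of all named Ensembl genes. These were 12 of 14 alpha genes, 15 of 22 beta genes and 20 of 22 gamma genes. The members under 1 TPM in both libraries were Pcdha1, Pcdha8, Pcdhb1, Pcdhb2, Pcdhb5, Pcdhb13, Pcdhb14, Pcdhb15 and Pcdhgb8, while Pcdhb10 and Pcdhgc5 passed only in replicate 2. Pcdhb1 was the sole member with 0 counts in both libraries, which allows up to 0.0527 TPM in replicate 1 and 0.0684 TPM in replicate 2 (3 counts, counting error only). Pcdhgb8, at 0.86 and 0.98 TPM, is annotated as a polymorphic pseudogene and had the lowest mean of the gamma genes. A threshold of 5 TPM left 1 alpha gene, 1 beta gene and 10 gamma genes.

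**Figure D2:**
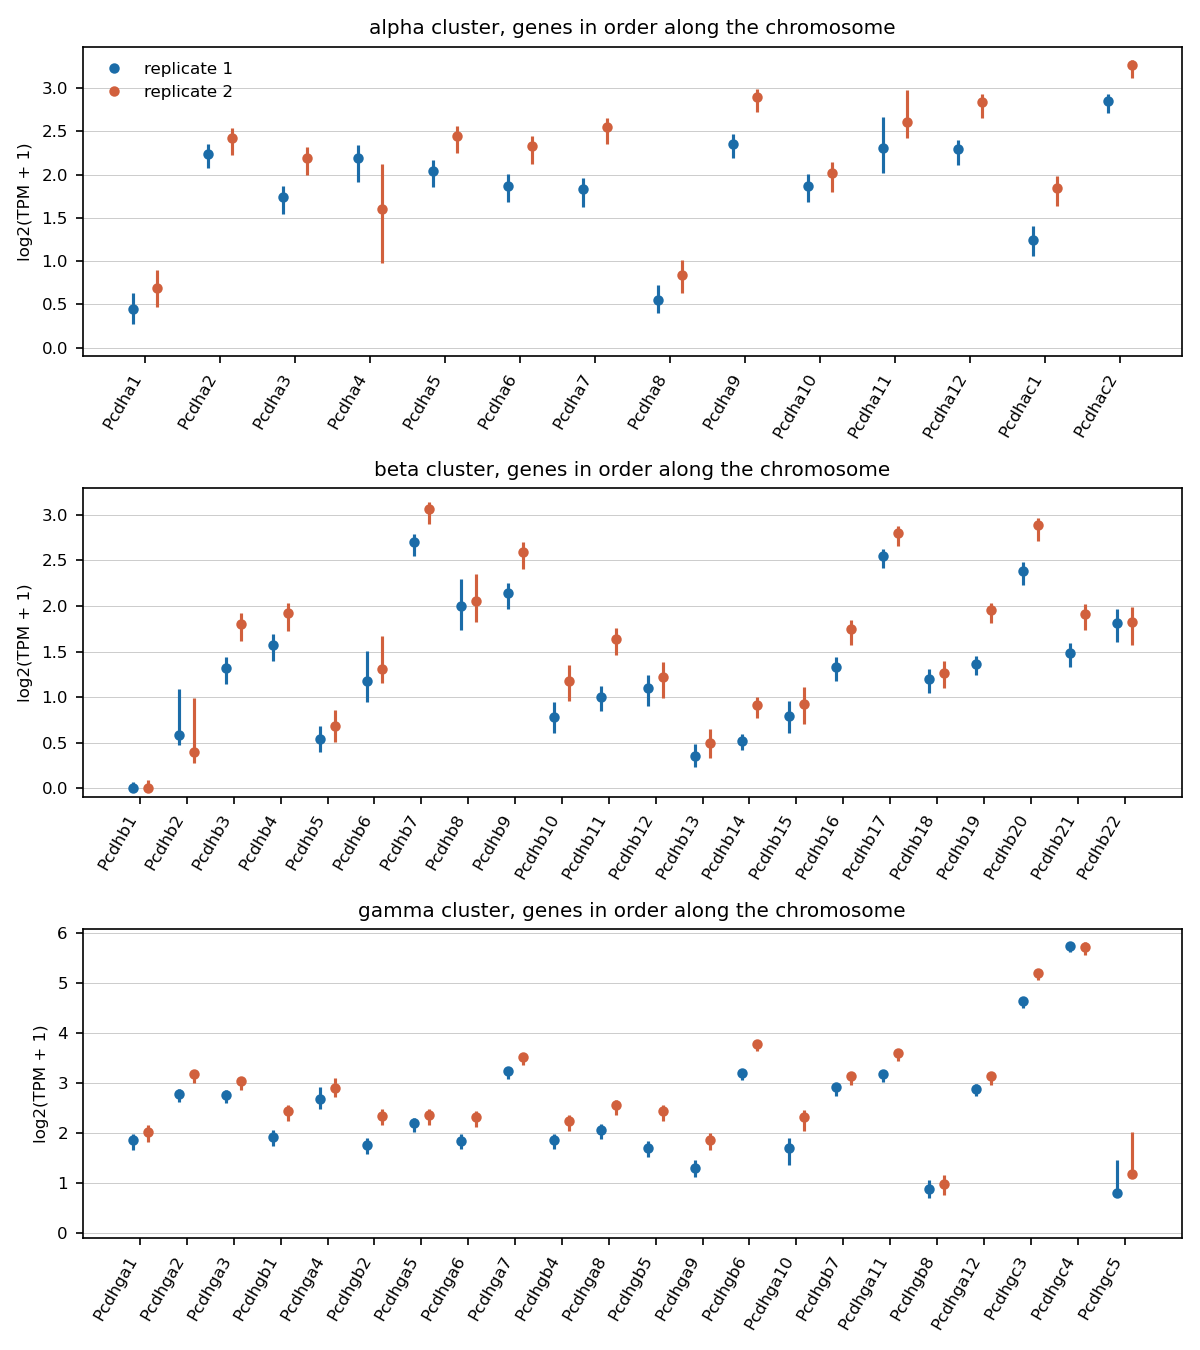
Level of each of the 58 genes as log2(TPM + 1) (vertical axis) in replicate 1 and replicate 2, in order along the chromosome within each cluster, with vertical lines for the deposited TPM intervals. Pcdhgc3 and Pcdhgc4 stand above all other gamma genes, and most points of replicate 2 lie above those of replicate 1. A point can lie near an end of its line because the interval belongs to a posterior mean and not to the TPM value itself.

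The C-type genes ranged from a mean of 1.00 TPM for Pcdhgc5 to 51.9 TPM for Pcdhgc4. Pcdhgc4, at 37815079 to 37841873, was the highest member, at 52.41 TPM in replicate 1 and 51.48 TPM in replicate 2 (SD 0.658). It is the gamma gene tied to interneuron survival. Pcdhgc3, at 37806364 to 37841873, came next at 23.95 and 35.53 TPM (29.7 ± 8.19). The deposited intervals of these 2 genes did not overlap in either library, and neither did those of Pcdhgc3 and the next gene down, Pcdhgb6. Pcdhgc5, a gene known for rising later, after birth, was far lower at 0.74 and 1.27 TPM. Within the alpha cluster Pcdhac2, which acts in the spacing of serotonergic axons, was the highest member at 6.21 and 8.60 TPM, and held 15.2% of the alpha sum in each library. Its interval lay above that of every other alpha gene in both libraries, and the next gene by mean level was Pcdha9 at 4.12 and 6.45 TPM. Pcdhac1 was lower, at 1.37 and 2.59 TPM.

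The top place of Pcdhgc4 rested on a single transcript that is nearly all constant sequence. ENSMUST00000195239 is 2272 nt long, of which 2119 nt are the constant exons and 153 nt are other sequence, and 6.95% of its 100-nt windows were found in no other gene. The deposited tables gave it 39.82 TPM in replicate 1 and 31.17 TPM in replicate 2, which was 76.0% and 60.5% of the gene. The full-length Pcdhgc4 transcript, ENSMUST00000066140, had 3.17 and 7.19 TPM, and a retained-intron transcript with no constant exon, ENSMUST00000193222, had 9.42 and 13.12 TPM. So the transcript that carries both the cadherin repeats and the tail was the smallest of the 3 in both libraries. With transcripts of under 1000 nt outside the constant exons left out, the Pcdhgc4 share of the gamma sum went from 29.4% to 11.3%, and Pcdhgc3 was then the highest gene. That count was chosen after the values had been seen. Whether reads from the shared exons of other gamma genes were given to the short transcript was not tested.

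Pcdhgc3 also had 3 annotated forms, and most of its RNA was in 2 of them. Its full-length transcript, ENSMUST00000076807, had 13.65 TPM in replicate 1 and 26.45 TPM in replicate 2. A transcript annotated for nonsense-mediated decay, ENSMUST00000192103, had 10.14 and 8.90 TPM, and the retained-intron form had 0.16 and 0.19 TPM. The full-length form alone was higher than the full-length form of Pcdhgc4 in both libraries, with intervals that did not overlap.

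**Figure D3:**
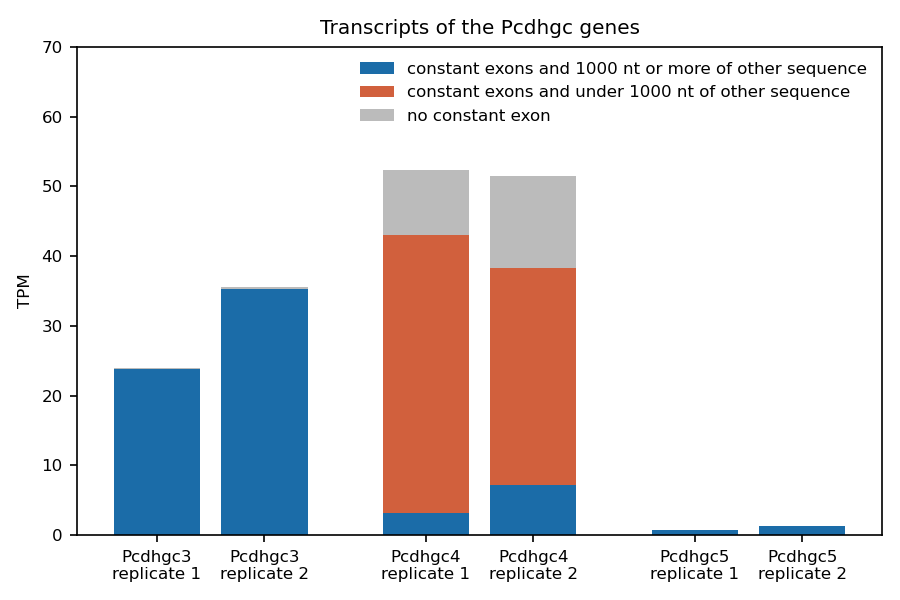
TPM (vertical axis, from 0) of the 3 Pcdhgc genes in each library, stacked by transcript class. The class with constant exons and under 1000 nt of other sequence makes up 39.82 and 31.17 TPM of Pcdhgc4, while Pcdhgc3 is almost wholly of the class with 1000 nt or more.

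Over the whole gamma cluster, transcripts that joined the constant exons to at least 1000 nt of other sequence summed to 105.22 and 148.74 TPM. Transcripts with no constant exon summed to 13.55 and 20.63 TPM, or 8.54% and 10.3% of the gamma sum, and 11 of the 22 gamma genes had one. Most of that sum, 9.42 and 13.12 TPM, came from the retained-intron transcript of Pcdhgc4 alone. In the alpha cluster the same class had 0.54 and 1.69 TPM, or 1.32% and 2.99%. Nearly all alpha RNA, 39.65 and 54.87 TPM, was in transcripts that held constant-exon sequence and at least 1000 nt of other sequence. Several gamma transcripts without a constant exon are annotated as retained introns or as a variable exon alone, and total RNA holds unspliced RNA as well as spliced RNA. How much of this class is unspliced was not tested.

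Among the alternate gamma genes, 3 stood highest. Pcdhgb6 had 8.19 TPM in replicate 1 and 12.80 TPM in replicate 2 (10.5 ± 3.26). Pcdhga11 had 8.12 and 11.18 TPM (9.65 ± 2.16), and Pcdhga7 had 8.41 and 10.42 TPM (9.42 ± 1.42). No pair of these 3 had intervals apart in both libraries, although Pcdhgb6 lay above Pcdhga7 in replicate 2. Those of Pcdhga7 and the next gene, Pcdhgb7, at 6.54 and 7.84 TPM, did not overlap in either library. Below them followed Pcdhga12 at 6.43 and 7.80 TPM, Pcdhga2 at 5.86 and 8.06 TPM, Pcdhga3 at 5.80 and 7.21 TPM and Pcdhga4 at 5.40 and 6.47 TPM. The remaining alternate gamma genes apart from Pcdhgb8 lay between 1.49 TPM, the value of Pcdhga9 in replicate 1, and 4.88 TPM, that of Pcdhga8 in replicate 2. They included Pcdhga5 at 3.58 and 4.18 TPM, Pcdhgb1 at 2.79 and 4.41 TPM, Pcdhga6 at 2.61 and 4.03 TPM, Pcdhgb2 at 2.41 and 4.10 TPM, Pcdhgb4 at 2.62 and 3.72 TPM, Pcdhga10 at 2.28 and 3.99 TPM and Pcdhga1 at 2.63 and 3.10 TPM. Every Pcdhga gene was above 1 TPM in both libraries. Level followed position only weakly here, with Spearman's rho of 0.11 between order along the chromosome and level over the 19 alternate gamma genes. The same measure was 0.49 over the 12 alternate alpha genes and 0.33 over the 22 beta genes. These values describe genes that share libraries and, in the alpha and gamma clusters, constant exons.

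Over the 12 alternate alpha genes the coefficient of variation of TPM was 0.453 and 0.498, against 0.566 and 0.530 over the 19 alternate gamma genes. The highest alternate alpha gene was 11.4 and 10.6 times the lowest, against 9.78 and 13.1 times for alternate gamma. Leaving aside Pcdha1, at 0.36 and 0.61 TPM, and Pcdha8, at 0.47 and 0.79 TPM, the other 10 lay between 2.04 and 6.45 TPM over both libraries. Pcdha9 was the highest at 4.12 and 6.45 TPM, followed by Pcdha12 at 3.89 and 6.13 TPM and Pcdha11 at 3.94 and 5.09 TPM. In the middle stood Pcdha5 at 3.11 and 4.44 TPM, Pcdha6 at 2.66 and 4.01 TPM, Pcdha3 at 2.33 and 3.57 TPM and Pcdha10 at 2.64 and 3.04 TPM. Neighbours in the order of level were rarely separable. Of 13 such neighbouring alpha pairs, 2 had intervals that did not overlap in both libraries, namely Pcdhac2 over Pcdha9 and Pcdhac1 over Pcdha8. Of all 91 alpha pairs, 54 did not overlap in both libraries. The intervals of Pcdha1 and Pcdha8 lay below those of all other alpha genes in both libraries, except that Pcdha8 overlapped Pcdha4 in replicate 2. The rest formed a graded series.

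Alpha genes with more than 1 annotated form showed how loosely the split between forms was set. Pcdha2 was stable as a gene, at 3.71 and 4.35 TPM. Its longer transcript, ENSMUST00000115662, went from 3.32 TPM in replicate 1 to 1.55 TPM in replicate 2, and ENSMUST00000195590 from 0.39 to 2.80 TPM. The interval of each form in one library overlapped its interval in the other. The forms of Pcdha6 also traded places, from 1.29 to 3.57 TPM for ENSMUST00000193777 and from 1.37 to 0.44 TPM for ENSMUST00000193389. The split of these genes into forms thus differed more between the libraries than the gene values did.

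Pcdha4 went against the other alpha genes. It had 3.57 TPM in replicate 1 and 2.04 TPM in replicate 2, the sole alpha gene lower in replicate 2, with intervals that overlapped. The annotation also holds Gm42416, a read-through gene that runs from the alpha into the gamma cluster, shares exon bases with 23 members and has 2410 nt in common with Pcdha4. Only 3.51% of the 100-nt windows of Pcdha4 were found in no other gene, the lowest share of all 58 members. Gm42416 had 0 counts in replicate 1 and 92.34 in replicate 2, where its interval ran from 0.377 to 2.84 TPM. The posterior SD of the Pcdha4 count was 7.88% of the count in replicate 1 and 30.0% in replicate 2. Added together, Pcdha4 and Gm42416 had 3.57 and 3.94 TPM. The log2 ratio of plain TPM, with no pseudocount, was 0.14 for this sum and -0.81 for Pcdha4 alone. The sum was chosen after the values had been seen. Whether reads of Pcdha4 were given to Gm42416 was not tested.

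The beta genes included the lowest members. Pcdhb7 was the highest at 5.50 TPM in replicate 1 and 7.34 TPM in replicate 2 (6.42 ± 1.30), or 13.7% ± 0.265 of the beta sum. Pcdhb17 followed at 4.87 and 5.99 TPM, Pcdhb20 at 4.23 and 6.39 TPM, and Pcdhb9 at 3.41 and 5.03 TPM. Of these 4 genes, Pcdhb7 and Pcdhb9 are genes 7 and 9 along the cluster, and Pcdhb17 and Pcdhb20 are genes 17 and 20. The middle of the beta range held Pcdhb8 at 2.99 and 3.17 TPM, Pcdhb22 at 2.51 and 2.53 TPM, Pcdhb4 at 1.97 and 2.78 TPM, Pcdhb21 at 1.80 and 2.77 TPM, Pcdhb3 at 1.49 and 2.48 TPM and Pcdhb16 at 1.52 and 2.35 TPM. Lower were Pcdhb6 at 1.26 and 1.47 TPM, Pcdhb18 at 1.29 and 1.41 TPM and Pcdhb12 at 1.15 and 1.34 TPM, all 3 with intervals that overlapped between the embryos. The coefficient of variation of TPM over the 22 beta genes was 0.843 and 0.824, against 0.527 and 0.543 over the 14 alpha genes and 0.566 and 0.530 over the 19 alternate gamma genes. Over all 22 gamma genes, with Pcdhgc3 and Pcdhgc4, it was highest, at 1.55 and 1.29. Below 1 TPM in both libraries were 6 beta genes, more than in alpha or gamma. They lay at the start of the cluster, as Pcdhb1, Pcdhb2 and Pcdhb5 did, and in its middle, as did Pcdhb13 at 0.28 and 0.41 TPM, Pcdhb14 at 0.43 and 0.88 TPM and Pcdhb15 at 0.73 and 0.90 TPM. Of 21 neighbouring pairs in level, only Pcdhb13 over Pcdhb1 did not overlap in both libraries, yet 153 of all 231 pairs did not. In the gamma cluster the same counts were 4 of 21 neighbours and 177 of 231 pairs.

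Beta counts were the firmest of the 3 clusters. Counts were whole numbers in both libraries, within 0.005, for 10 of 22 beta genes and for no alpha or gamma gene, against 76.1% of 9870 protein-coding genes in the same range of level. The posterior SD of the count, which measures doubt in the assignment of reads, had a median of 5.79% and 5.28% of the count in the alpha cluster and 4.33% and 4.28% in the gamma cluster. In the beta cluster it was 0.0119% and 0.159%. Even so the deposited intervals were no narrower for beta genes. The width of the interval relative to the level had a median of 0.372 and 0.344 in beta, 0.313 and 0.282 in alpha and 0.284 and 0.270 in gamma, and beta genes had fewer counts and shorter transcripts.

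**Figure D4:**
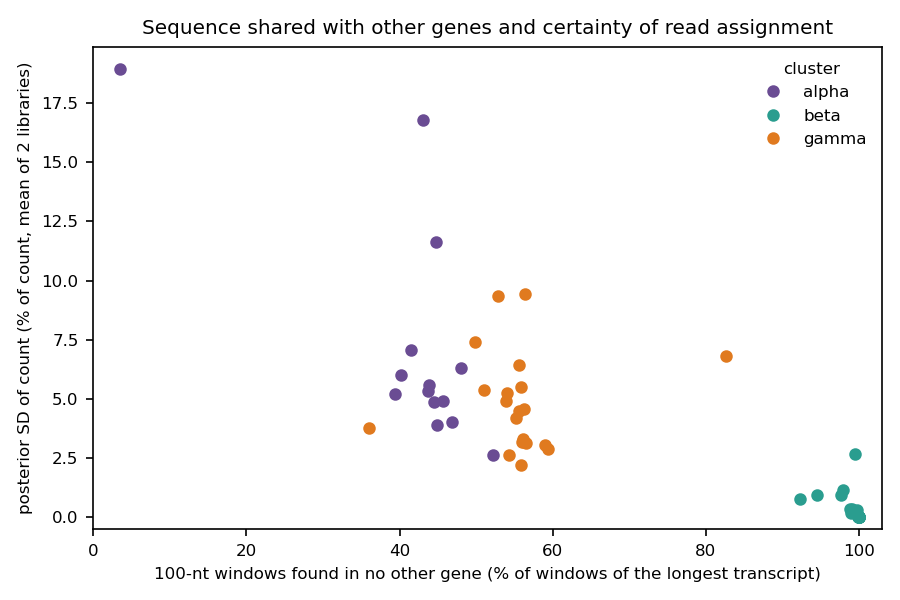
Posterior SD of the count as a percent of the count, averaged over the 2 libraries (vertical axis), against the percent of 100-nt windows of the longest transcript found in no other gene (horizontal axis), for the 57 genes with counts. Beta genes sit at the lower right, alpha and gamma genes at 3.51% to 82.6% of unique windows, and Pcdha4 at the upper left.

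Gene levels in the 2 libraries ran close together. Pearson's r of log2(TPM + 1) between replicate 1 and replicate 2 was 0.91 over 14 alpha genes, 0.97 over 22 beta genes and 0.99 over 22 gamma genes. Spearman's rho, which uses ranks alone, was 0.84, 0.97 and 0.94. These are descriptions across genes of the same 2 libraries, and genes are not independent replicates. The lowest values, in the alpha cluster, include Pcdha4.

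Levels were higher in replicate 2. This held for 54 of 58 members, against 74.0% of protein-coding genes at a mean of at least 1 TPM. The exceptions were Pcdha4, Pcdhb2 and Pcdhgc4, which were higher in replicate 1, and Pcdhb1 at 0 in both. The median difference in log2(TPM + 1), replicate 2 minus replicate 1, was 0.41 for alpha, 0.30 for beta and 0.39 for gamma, against 0.15 for protein-coding genes at 1 TPM or more. With counts scaled by edgeR's TMM method the median of protein-coding genes moved to -0.01 and that of the 58 members from 0.38 to 0.22, with 52 members higher in replicate 2. Relative to other genes the members' difference was thus about the same on both scales.

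Intervals did not overlap between the embryos for 34 of 58 members, 8 alpha, 12 beta and 14 gamma genes, and all 34 were higher in replicate 2. The same call was met by 21.8% of nuclear protein-coding genes in this direction, by 4.14% in the other and by 25.9% in either. Among the 48 members at a mean of at least 1 TPM the count was 32, or 66.7%, against 35.0% of protein-coding genes at that level (6.68% in the other direction and 41.7% in either). The interval covers counting and read assignment within a library and not the spread among embryos, so the call compares these 2 libraries only. Most of the differences were small. Only Pcdhb11, at 1.00 and 2.12 TPM, and Pcdhb14 were also at least 2-fold higher, against 0.871% of nuclear protein-coding genes. Among the larger differences on the log2(TPM + 1) scale were Pcdha7, from 2.57 to 4.85 TPM, Pcdhgb5, from 2.27 to 4.44 TPM, Pcdhb19, from 1.58 to 2.89 TPM, and Pcdhac1.

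Transcript length moved with the same difference over all genes. Among protein-coding genes other than the members with a mean of 1 to 15 TPM, the median log2 ratio was -0.04 below 1000 nt, 0.10 from 1000 to 2000 nt, 0.23 from 4000 to 5000 nt and 0.30 at 6000 nt or more. The ratio was 0.22 from 3000 to 4000 nt and 0.26 from 5000 to 6000 nt. Over these classes the share with intervals apart and higher in replicate 2 went from 2.92% to 61.4%. By 1000-nt class from 3000 to 6000 nt that share was 32.7%, 38.3% and 47.4%. This length range holds 45 of the 48 members at a mean of at least 1 TPM. The members were long, with a median length of 5333.5 nt in alpha, 3578 nt in beta and 4669 nt in gamma. The median of the length class was then subtracted, taken over all other protein-coding genes at a mean of at least 1 TPM. With this step, added after the values had been seen, 37 members lay above the class median and 21 below. The cluster medians became 0.15, 0.047 and 0.14. Markers of young neurons were also higher in replicate 2, with Dcx at 187.91 and 248.89 TPM, Map2 at 245.96 and 322.96 TPM and Tubb3 at 1485.57 and 1666.29 TPM, and all 3 had intervals apart. Their summed level was 1919 and 2238 TPM, and their log2 ratios were 0.40, 0.39 and 0.17 in that order. Over protein-coding genes at 1 TPM or more the median was 0.15, and 35.0% had intervals apart and higher in replicate 2. The 7 forebrain markers had a median of 0.14, from -0.13 for Emx1 to 0.60 for Gad1. Of 3 progenitor markers, Sox2 was lower in replicate 2 with intervals apart, Pax6 overlapped and Fabp7 was higher. The 2 red blood cell genes and the 2 meningeal genes on the marker list were higher in replicate 2 as well, at sums of 4277 and 5483 TPM and of 159 and 210 TPM. None of the listed endothelial, microglial and choroid plexus genes had intervals apart, with median log2 ratios of 0.004, 0.03 and 0.03. The part of length, cell makeup and collection day in the members' difference was not tested.

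**Figure D5:**
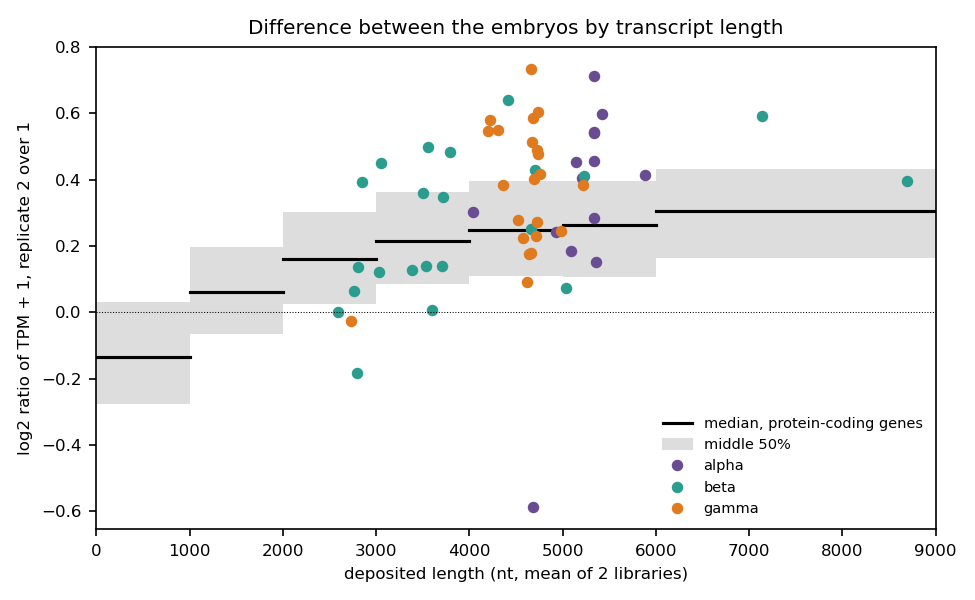
Log2 ratio of TPM + 1, replicate 2 over replicate 1 (vertical axis), against deposited length in nt (horizontal axis) for the 58 genes by cluster, with black lines and grey bands for the median and the middle 50% of other protein-coding genes at a mean of at least 1 TPM in each length class. The medians of other genes go from -0.14 below 1000 nt to 0.30 at 6000 nt or more, and most members lie above 0, with Pcdha4 at -0.59.

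Pcdhgc4 showed how the difference fell on single forms. The gene had a log2 ratio of -0.03. Its short transcript was lower in replicate 2, while its full-length and retained-intron forms were higher, and the full-length form's intervals, from 2.02 to 4.20 TPM and from 5.43 to 8.85 TPM, did not overlap. The short form's intervals, from 35.7 to 43.2 TPM and from 26.4 to 35.7 TPM, met at their edges.

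The listed genes known to set protocadherin promoter choice were all expressed. This list and those of partners and non-clustered protocadherins below were chosen with earlier results of these data known. Their levels are therefore given as a description. All 16 listed regulators reached 1 TPM in both libraries, with a median of 29.8 TPM against 18.7 TPM for all protein-coding genes at that level or above. The highest were Ctcf, which anchors the promoter loops, at 79.46 and 88.39 TPM, and the cohesin subunits Smc1a at 67.84 and 72.02 TPM, Smc3 at 51.37 and 60.44 TPM and Rad21 at 49.17 and 46.25 TPM. The lowest were Dnmt3b, a methyltransferase that marks the promoters in the early embryo, at 2.65 and 2.93 TPM, and Rest, a repressor of neuronal genes outside neurons, at 6.14 and 6.36 TPM. Between the embryos 5 of the 16 were higher in replicate 2 and 2 in replicate 1 by non-overlapping intervals, beside 35.0% and 6.68% of protein-coding genes at 1 TPM or more.

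Partners inside the cell were higher still. All 20 listed genes reached 1 TPM in both libraries, and their median stood at 53.2 TPM. They included the membrane-bound protein kinase C substrate Marcks at 291.28 and 272.17 TPM, the WAVE complex subunit Brk1 at 255.90 and 239.03 TPM, Pdcd10, a protein that binds the protocadherin tail, at 85.73 and 85.71 TPM and the gamma-secretase subunit Ncstn at 67.82 and 80.10 TPM. The lowest were the kinase Ptk2b, which gamma and alpha tails are known to bind and inhibit, at 1.11 and 1.92 TPM, and Wasf3 at 3.96 and 5.02 TPM. By intervals 12 of the 20 were higher in replicate 2 and 2 in replicate 1, beside the same 35.0% and 6.68% of protein-coding genes.

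The listed non-clustered protocadherins, which have their own loci and do not share constant exons with the clusters, had a higher median level. All 10 reached 1 TPM in both libraries, and their median stood at 11.6 TPM. The median was 3.15 TPM for the 58 clustered genes, of which 47 reached 1 TPM in both libraries. Pcdh9 had 42.96 and 54.13 TPM, Pcdh8 18.24 and 29.91 TPM, Pcdh18 19.79 and 22.23 TPM and Pcdh11x 11.41 and 17.22 TPM. The lowest were Pcdh20 at 4.22 and 4.85 TPM and Pcdh1 at 4.62 and 6.99 TPM. Of all 58 clustered genes, Pcdhgc4 and Pcdhgc3 alone exceeded the non-clustered median in both libraries. By intervals 6 of the 10 were higher in replicate 2 and 0 in replicate 1, again beside 35.0% and 6.68%, with a median log2 ratio of 0.35, next to 0.38 for the clustered members.

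Other genes in the same stretch of chromosome 18, up to 100 kb beyond the clusters, were mostly below 1 TPM. Of 31 in the tables, 8 had a mean of at least 1 TPM. Hdac3, a histone deacetylase beyond the gamma end, had 144.96 and 136.80 TPM. Taf7, a subunit of the general transcription factor TFIID that lies between beta and gamma, had 21.54 and 19.47 TPM, and the actin nucleator Diaph1 had 7.04 and 7.67 TPM. Of these 3 genes none shares exon bases with a member, and Hdac3 and Taf7 were slightly lower in replicate 2, opposite to most members. The other 5 were BC037039 at 6.56 and 6.31 TPM, Gm10544 at 5.33 and 4.46 TPM, Gm26672 at 3.22 and 3.79 TPM, 3222401L13Rik at 1.58 and 1.75 TPM and Gm8242 at 1.34 and 0.66 TPM. BC037039 lies antisense to Pcdhgc3 with 1559 nt in common, Gm26672 antisense to Pcdhga10 with 2613 nt, sharing exon bases with 4 members in all, and Gm10544 antisense to Pcdha11 with 852 nt. No source used here says whether strand was used in the counting. Reads of such pairs may therefore have been mixed, and the values of Pcdhgc3, Pcdhga10 and Pcdha11 carry that doubt. Antisense genes below 1 TPM add to it, such as Gm10545, at 0.66 and 0.79 TPM, which shares exon bases with 2 members, 2486 nt of them with Pcdha11.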

How the data were processed

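Values came from 2 libraries, the whole study analysed here. The authors deposited expected counts, TPM, FPKM, posterior means, posterior SDs of the count and interval bounds per gene and transcript, with percent of each gene per transcript form, per the file headers. They came from transcriptome alignments on mm10 with GENCODE annotation M4, per the deposited notes; the aligner, quantifier, interval level and use of strand are not given in the sources used here. Reads of near-identical sequence were split by estimate, which touches alpha and gamma genes most.

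Names, exons and coordinates came from GENCODE M21 (GRCm38); all 88 member transcripts had the same length there. M21 calls 2 genes Pcdha11, and the one at RefSeq's Pcdha10 (GRCm38.p6) is written Pcdha10. Levels were compared as TPM, ratios as log2(TPM + 1), and 2 intervals as apart where they did not overlap, with no p-value. Constant bases are those in the exons of at least 5 members. Scaling used edgeR 4.0.16 (TMM) and DESeq2 1.42.0 (size factors), and the rest Python 3.11.15 with pandas 2.3.3. The interval call was also run on simulated independent counts, with no shared exons and no shift between libraries by transcript length. That run cannot show how the call behaves on reads shared between members. A count of 3 at an effective length of 1 kb is 0.131 and 0.170 TPM. The rule for named genes took in all members, the 4 highest and 2 lowest genes of each list and other locus genes at 1 TPM or more. Members and lists were chosen with earlier results of these data known. No sequence is printed.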

Additional observations from a re-analysis of the deposited data

How the results depend on the processing

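No paired analysis was possible because both libraries belong to 1 group. Of 122 alternative values for 20 results, 78 stayed within the spread of the libraries or within 1.5 times a count or median ratio, 44 moved and 0 reversed. Part of this tally was fixed in advance. With 2 libraries, leaving 1 out always keeps a sum, ratio of sums or share within their spread. Only log2 ratios could reverse, and beta has no short transcripts with constant exons to remove. The removal of short transcripts, the length-class median and the addition of Gm42416 were chosen after the values had been seen.

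Cluster sums in counts not divided by length were 4954 for alpha, 3617 for beta and 14083 for gamma, which are on another scale than TPM. The same counts gave log2 ratios of -0.45 for beta over alpha and 1.51 for gamma over alpha, and shares of 21.3% for Pcdhac, 37.8% for Pcdhgc, 17.2% for Pcdhac2, 12.0% for Pcdhb7 and 19.5% for Pcdhgc4. With protein-coding transcripts only, the ratios were -0.00099 for beta over alpha, 1.71 for gamma over alpha and 1.71 for gamma over beta, with shares of 40.2% for Pcdhgc and 15.7% for Pcdhac2. With constant-exon transcripts only, gamma over alpha was 1.78 and Pcdhac2 held 15.5%; no beta value exists there. Posterior means gave 14.99% for Pcdhac2. Without the short transcripts (added), gamma summed to 144 TPM, the ratios were -0.0364, 1.57 and 1.61, and the shares were 32.6% for Pcdhgc, 15.3% for Pcdhac2 and 11.3% for Pcdhgc4.

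At 5 TPM, 1 alpha, 1 beta and 10 gamma genes were detected, and at 1 FPKM 9 beta genes. The median log2 ratios between embryos for alpha, beta and gamma were 0.22, 0.12 and 0.22 with a pseudocount of 5, 0.24, 0.19 and 0.22 with TMM, 0.23, 0.18 and 0.22 with DESeq2 size factors, and 0.15, 0.047 and 0.14 less the length-class median (added). With DESeq2 size factors 51 members were higher in replicate 2. Requiring 2-fold as well left 0, 2 and 0 members with intervals apart; with FPKM intervals 28 of 58 were apart, all higher in replicate 2, beside 14.1% of protein-coding genes apart in that direction.

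With 1 library at a time, sums were 40.95 to 56.56 TPM for alpha, 39.69 to 54.44 for beta and 158.58 to 200.53 for gamma. The ratio between embryos needs both libraries, so leaving out a replicate was not run for it.

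Genes near 1 TPM rest on few counts (Pcdhb13 had 23 and 26), and intervals cover counting and assignment error, not the spread among embryos.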
